A study of Caenorhabditis elegans with 8 samples.

Results

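Ribosome occupancy in young adult Caenorhabditis elegans was set against that in worms of the fourth larval stage (L4), over every coding sequence (CDS), over whole gene families and over CDS that carry a sequence name alone. Worms of the wild-type strain N2 were hatched from prepared eggs, fed NA22 bacteria on peptone-rich NGM plates and harvested whole. Young adults gave libraries 1 to 4. Monosomes came from a sucrose gradient for libraries 1 and 3 and from a gel filtration column for libraries 2 and 4, and the libraries were built with the submitters' own protocol for 1 and 2 and with a commercial ribosome profiling kit for 3 and 4. L4 worms gave libraries 5 to 8, which differed in the fragment sizes cut from the gel, and no label ties a library number to a size window. The titles of the young adult libraries share a specimen number, and nothing in the labels names separate cultures for L4, so p-values measure a spread between libraries that may be wholly technical. Stage and experiment change together here and cannot be told apart. The gel window was 28 to 30 nt for all 4 young adult libraries and 25 to 30, 28 to 30, 28 to 35 and 26 to 34 nt for the L4 libraries, so 1 L4 window was the same, but it cannot be matched to a column.

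A CDS was a member of the comparison when its RPKM (reads scaled to the length of the feature and to the reads of the library) was at least 1 in at least 2 of libraries 1 to 7. That held for 13494 of the 20505 CDS in the table, and the other 7011 were not tested. Of the members, 10817 reached the threshold in at least 2 libraries of both stages, 752 through the young adult libraries alone, 1876 through L4 alone and 49 only by mixing stages. A CDS that came in through a single stage was selected for a level above the threshold there and below it in most libraries of the other stage, so counts over members describe what was tested and are not evidence on their own. At the threshold, the members pll-1, nspf-2, Y43F8B.20, mrp-8 and syd-1 lay between 1.0 and 1.002 RPKM in their deciding library, while nlp-82, chkr-2, T06G6.3, npr-39 and H08J19.1 lay just outside, down to 0.9978. Library totals ran from 18018744 to 38132794 reads for young adults and from 4999364 to 26078844 for L4 libraries 5 to 7.

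Library 8 is labelled L4, but its yolk protein and cuticle collagen levels do not match the other L4 libraries. It was left out for this reason, and these levels are measured values of this comparison. Those families are therefore described below with no test, and the main counts are repeated with library 8 put back into L4. On log2(RPKM + 1), library 8 was set against the mean of young adults and that of L4 libraries 5 to 7. Of 518 CDS called higher in young adults by more than 4-fold, it was nearer the young adult mean for 504 (97.3%). Of 1152 called lower by as much, it was nearer that mean for 1102 (95.7%). These sets include 6 vitellogenins and 20 cuticle collagens on the higher side and 89 collagens on the lower side. Those members belong to the families that led to leaving out library 8. Stage marker sums are given as levels only, since 6 of the 16 genes of the first list are vitellogenins and the second holds collagens, which chose the libraries. Summed over 16 genes of oocytes and yolk, occupancy was 24650 to 25030 RPKM in the young adult libraries, 138 to 156.5 in L4 libraries 5 to 7 and 24130 in library 8. Summed over 10 genes of larval cuticle and molt, it was 24.91 to 31.38 RPKM in young adults, 5780 to 6069 in L4 libraries 5 to 7 and 42.42 in library 8. No marker of either list was at 0 in a whole stage.

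As background, an L4 hermaphrodite makes sperm, and its germ line switches to oocytes around the last molt. The intestine of the adult then secretes vitellogenin, the yolk protein that growing oocytes take up, and each oocyte is loaded with the maternal mRNAs and eggshell proteins of the embryo. During L4 the epidermis builds the adult cuticle beneath the larval one out of collagens, cuticlins and a transient apical matrix, and sheds the old cuticle at the molt. Footprint density on a CDS reflects both the amount of its mRNA and the rate of its translation. No matched mRNA library was used here, so the differences below do not separate these.

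Between the stages, 3059 of the 13494 CDS were called higher in young adults (22.7%) and 6293 lower (46.6%), by limma on log2(RPKM + 1) at an adjusted p of 0.05, so that 9352 (69.3%) were called in either direction. Fewer differed by much: 518 were called higher by more than 4-fold (3.84%) and 1152 lower (8.54%), and at more than 100-fold the counts were 40 and 100. Pearson's r over all tested CDS was 0.984 to 0.992 between young adult libraries, 0.981 to 0.996 between L4 libraries 5 to 7 and 0.734 to 0.771 across the stages. With whole worms, fewer cells of a type and less RNA per cell cannot be told apart, for any family below. The median log2 difference (young adults minus L4) over all CDS was -0.34, and the balance of calls depended on the scaling: 32.7% of the calls were in the higher direction as deposited, 54.2% after median centring and 53.6% after quantile normalization. Family counts below are to be read against these shares. Median centring called 4937 CDS higher (36.6%) and 4171 lower (30.9%). With library 8 kept in L4, 1510 were higher (11.2%) and 3748 lower (27.8%), and all of these were among the calls of the 7-library fit.

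**Figure D1:**
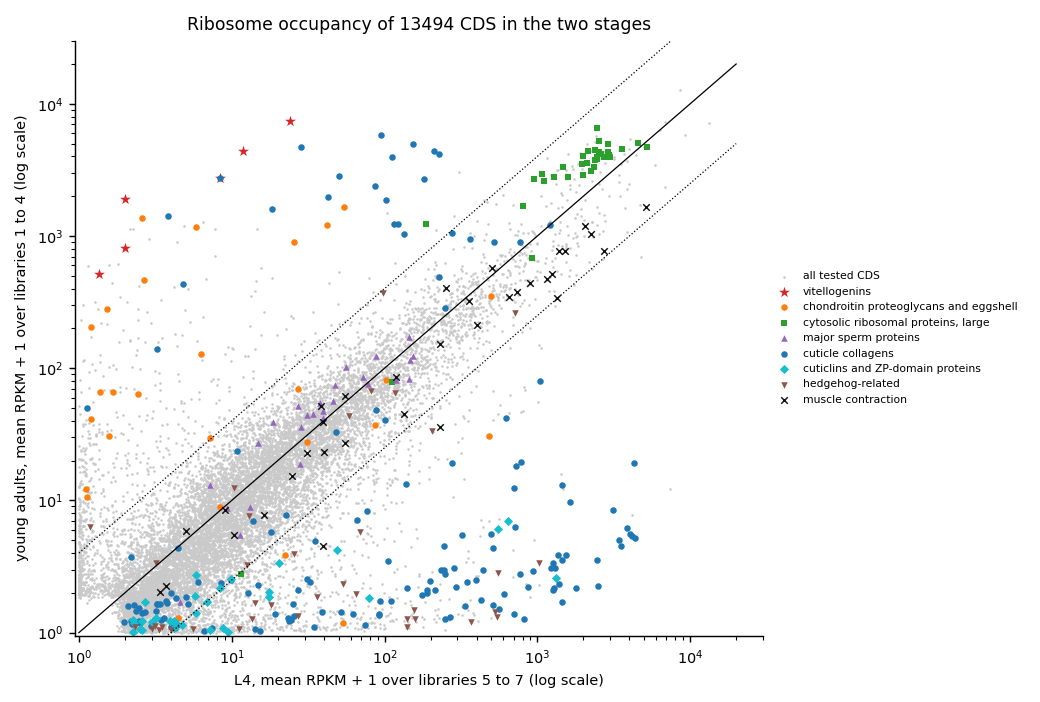
Mean RPKM + 1 of each tested CDS in L4 libraries 5 to 7 (horizontal, log scale) against young adult libraries 1 to 4 (vertical, log scale), for 13494 CDS in grey with 8 families coloured. The solid line marks equal values and the dotted lines a 4-fold difference. Vitellogenins and most eggshell genes lie far above, most collagens, cuticlins and hedgehog-related genes far below, and ribosomal proteins above the solid line at the upper end.

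The families that led to leaving out library 8 are given as levels. All 6 vitellogenins were far apart between the stages, with a summed occupancy of 17800 RPKM in young adults and 43.74 RPKM in L4. The gene vit-2 stood at 4144, 4278, 4524 and 4571 RPKM in libraries 1 to 4 and at 10.7, 11.1 and 10.6 RPKM in libraries 5 to 7. The widest gap was that of vit-5, with 1987, 1892, 1915 and 1866 RPKM in young adults against 1.20, 1.20 and 0.62 in L4. The closely similar copies vit-3 and vit-4 had means of 804 and 516 RPKM in young adults and 0.991 and 0.360 RPKM in L4, and the sources do not say how reads were shared between such copies. Library 8 held 4506 RPKM of vit-2 and 1426 of vit-5. None of the vitellogenins overlapped between the stages.

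The most occupied collagens of young adults were not those of L4. Of 178 cuticle collagens in the table, 155 were tested, and 57 of these came in through L4 alone. Summed over the family, occupancy was 55950 RPKM in young adults and 78160 RPKM in L4. The most occupied in young adults were col-140, col-20, col-119 and col-181. The collagen col-140 stood at 5111, 6714, 4936 and 6333 RPKM in libraries 1 to 4 and at 105, 89.9994 and 85.3 in libraries 5 to 7, and col-119 averaged 4687 RPKM against 27.6. In L4 the leading members were dpy-4, sqt-3, dpy-5 and col-138, of which the dpy and sqt genes are known from mutants of altered body shape. For dpy-4 the values were 3.77, 5.85, 3.15 and 4.20 RPKM in young adults and 4151, 4222 and 4673 in L4. For sqt-3 the young adult values ran from 11.5 to 28.1 RPKM and the L4 values from 3926 to 4638. The abundant col-42 was near level: it averaged 1207 ± 297 RPKM in young adults (SD, n = 4 libraries) and 1209 ± 122 in L4 (n = 3).

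Outside yolk and collagen, the largest rises in young adults were mostly short CDS, many of them known by a sequence name alone. The CDS C10G8.4 on chromosome V stood at 569, 508, 681 and 624 RPKM in libraries 1 to 4 and at 0.129, 0.309 and 0 in libraries 5 to 7. Only 3 reads in L4 against 20392 in young adults stand behind that contrast. Pooled over the libraries of each stage and scaled to their total reads, they gave a ratio of 3150. Its exact Clopper-Pearson 95% interval was 1080 to 15300, for counting error only. Ratios with a counting interval below are of this pooled kind, not ratios of mean RPKM. On the log2(RPKM + 1) scale its difference was 9.02 (SE 0.15, limma adjusted p = 2.42e-11). The chondroitin proteoglycan cpg-1, part of the eggshell, was the largest at 9.03 (SE 0.15), with 1518, 1138, 1578 and 1245 RPKM against 1.72, 1.52 and 1.57. Libraries of the stages did not overlap for any CDS in this set, as the rule for naming them required.

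Genes named ule, for uterine lumen expressed proteins, were all higher in young adults. The gene ule-5 stood at 1006, 938, 1334 and 1220 RPKM in young adults and at 1.20, 1.20 and 1.05 in L4 (log2 difference 9.02, SE 0.15). For ule-3 the levels were 1075, 1236, 1144 and 1296 RPKM against 3.75, 4.67 and 3.26 (7.93, SE 0.14). The gene ule-1, at 161, 184, 271 and 313 RPKM in young adults, had 2 reads in all of L4, a ratio of 4410 with a counting interval of 1220 to 36400. The remaining members, ule-2 and ule-4, were chosen after their values were seen: ule-4 averaged 1485 ± 74.9 RPKM against 102 ± 12.7 (log2 difference 3.85), and ule-2 averaged 264 ± 21.5 against 15.3 ± 4.53 (4.06). These genes thus had a measurable L4 level, while ule-1, ule-3 and ule-5 were all below 5 RPKM there.

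Runs of adjacent CDS on the X chromosome accounted for several of the largest rises. In the ZK813 group, ZK813.1 stood at 424, 513, 665 and 821 RPKM in young adults against 0.576, 0.689 and 0.429 in L4, and ZK813.7 at 969, 1015, 780 and 811 against 2.89, 4.45 and 2.91. The values of ZK813.3 split within young adults, with 327 and 380 RPKM in the in-house libraries 1 and 2 and 815 and 938 in the kit libraries 3 and 4, against 0.458, 0.731 and 1.20 in L4. The kit libraries were also the higher ones for ZK813.2, at 413 and 419 RPKM against 164 and 205, and L4 held 2 reads of it (ratio 3090, counting interval 855 to 25500). Such a gap between the preparations was small beside the gap between stages. Another X group held Y62H9A.3, Y62H9A.4, stha-3 and ule-5 side by side. Of these stha-3 was the most even, at 1122, 1107, 1119 and 1170 RPKM in young adults and at 1.46, 1.57 and 0.761 in L4 (log2 difference 8.98, SE 0.15), while Y62H9A.4 stood at 390, 312, 358 and 324 against 1.15, 0.825 and 0.5998.

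Further CDS without a gene name completed the set. Y37D8A.19 averaged 952 ± 112 RPKM in young adults and 1.90 ± 0.141 in L4 (log2 difference 8.36). ZC373.2 was more abundant, at 1270 ± 112 RPKM against 5.52 ± 1.35 (7.62). W02D9.7 averaged 442 ± 58.5 RPKM against 0.651 ± 0.191 (8.07), F55B11.3 281 ± 92.7 against 0.336 ± 0.191 (7.67) and Y57G11B.5 421 ± 146 against 1.47 ± 0.233 (7.36). In library 8, labelled L4, the 15 largest rises were all nearer the young adult mean.

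**Figure D2:**
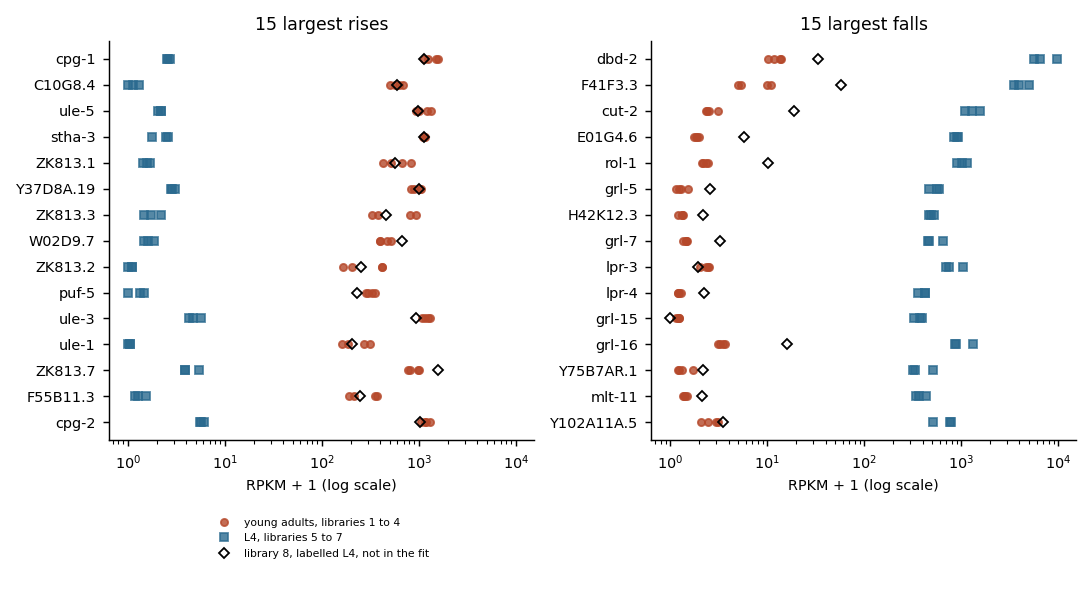
RPKM + 1 (horizontal, log scale) in each library for the 15 largest rises (left) and the 15 largest falls (right) among called CDS outside yolk and collagen. Circles are young adult libraries 1 to 4, squares L4 libraries 5 to 7 and open diamonds library 8. The stages do not overlap in any row, and every diamond lies on the young adult side.

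Genes that build the eggshell and load the oocyte were higher in young adults. Of 27 tested genes of the chondroitin proteoglycan and eggshell family, 18 were called higher and 5 lower (median log2 difference 4.25), 17 of the 18 by more than 4-fold, and 8 of the 27 had come in through young adults alone. The counts were the same, 18 and 5, with library 8 put back. The permeability barrier gene perm-4 stood at 1264, 1177, 1207 and 1206 RPKM in young adults and at 39.5, 44.2 and 40.2 in L4 (4.84, SE 0.12). The proteoglycan cpg-2 averaged 1178 ± 101 RPKM against 4.81 ± 0.281 (7.66, SE 0.12). Members bearing the cpg name did not all move this way: cpg-7 averaged 29.9 ± 2.36 RPKM against 483 ± 97.0 in L4 (-3.95, SE 0.16), and cpg-19 0.181 ± 0.101 against 52.7 ± 3.94 (-5.51, SE 0.13).

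Maternal RNA-binding proteins, which repress or localise mRNAs in oocytes, gave 26 higher and 3 lower of 32 tested (median 2.17), and 23 and 2 with library 8 in L4. Through young adults alone came 6 of the 32. The PUF protein gene puf-5 stood at 281, 328, 295 and 350 RPKM in young adults and at 0.476, 0.326 and 0 in L4 (log2 difference 7.97, SE 0.16). The zinc finger gene oma-2, which acts in oocyte maturation, stood at 170, 132, 218 and 164 RPKM against 0.285, 0.341 and 0 (7.14, SE 0.19). Other members differed less: the helicase gene cgh-1 averaged 1870 ± 185 RPKM against 446 ± 25.5 (2.06), and gld-1, a translational repressor of early meiosis, 238 ± 22.2 against 124 ± 7.86 (0.94). Lower in young adults were moe-3, at 3.92 ± 1.61 RPKM against 51.0 ± 3.62 (-3.46), and puf-9, at 13.3 ± 1.96 against 29.7 ± 7.17 (-1.09). The 8 tested members of the puf prefix had a median of 3.05, with 4 of them in through young adults alone.

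P granule proteins, the cytoplasmic condensates of the germ line, were called higher for 9 of 14 and lower for none (median 0.76). Through young adults alone came 4 of the 14. Embryonic members moved most. The gene meg-1 stood at 37.2, 33.4, 36.7 and 35.5 RPKM in young adults and at 0.0198, 0.189 and 0 in L4 (5.10, SE 0.13), and meg-3 averaged 11.9 ± 1.44 against 0.242 ± 0.0356 (3.37). Other members moved less: pgl-3 averaged 129 ± 22.9 RPKM against 67.1 ± 4.38 (0.92, adjusted p = 0.000433), glh-1 394 ± 45.7 against 297 ± 8.35 (0.40, adjusted p = 0.0201) and pgl-1 221 ± 36.2 against 188 ± 24.0 (0.23, adjusted p = 0.224).

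Substrate receptors and adaptors of ubiquitin ligases included many CDS seen almost solely in young adults. Skp1-related genes and cullins, which form the scaffold of these ligases, gave 15 higher and 6 lower of 25 tested, and 8 and 6 with library 8 in L4. Through young adults alone came 8 of the 25, and 1 through L4 alone. The gene skr-7 stood at 83.7, 69.5, 93.3 and 73.0 RPKM in young adults and had 1 read in L4, a ratio of 2660 with a counting interval of 477 to 105000. For skr-14, at 56.5, 43.2, 58.4 and 45.3 RPKM, L4 held no read, so young adults were at least 549-fold higher, with a floor of 3 reads over the L4 libraries. By the same floor skr-8, named with skr-9 for its place in a run of neighbours, was at least 132-fold and skr-9 at least 101-fold higher. The general adaptor skr-1 ran the other way, at 457, 385, 329 and 264 RPKM against 609, 649 and 975 (-1.05, SE 0.22), as did skr-3 (-1.41, SE 0.16). Near-identical skr copies make the single values uncertain.

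F-box proteins, the receptors that bind Skp1, gave 57 higher and 27 lower of 108 tested, out of 353 in the table (median 0.66), and 26 and 15 with library 8 put back. Of the 108, 46 came in through young adults alone. Members of the fbxb prefix were nearly all of that kind: 29 of 30 tested came in through young adults alone and 29 were called higher. The filter had selected them for that direction, so these calls are not evidence of it. None was over 4-fold, and 12 stayed called with library 8 in L4. The larger fbxa prefix went the other way, with 15 higher and 23 lower of 58 (median -0.17). The fbxc prefix gave 13 higher and 4 lower of 20. The most occupied large riser was fbxc-50, at 36.3 ± 3.60 RPKM against 2.48 ± 1.00 (3.46, SE 0.19). For fbxc-32, at 12.5, 13.7, 11.3 and 13.01 RPKM, L4 held 2 reads. Genes with MATH and BTB domains, adaptors of cullin ligases, gave 23 higher and 13 lower of 52, of which 12 came in through young adults alone, and 7 and 7 with library 8 in L4. Among them btb-6 averaged 18.1 ± 1.01 RPKM against 0.106 ± 0.102 (4.12). The sdz prefix, named for dependence on the maternal factor SKN-1 and zygotic expression, had 16 higher and 2 lower of 19. Through young adults alone came 15 of the 19, so the filter favoured that direction here too. With library 8 in L4 the counts were 7 and 1.

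DNA replication genes were higher across most of the family, and fewer division genes were called. Among MCM, ORC and other DNA replication genes, 30 of 34 were called higher and none lower (median 1.08), and 25 and none with library 8 in L4. The helicase subunit mcm-3 stood at 139, 158, 139 and 166 RPKM in young adults and at 29.5, 29.5 and 23.4 in L4 (2.41, SE 0.14), and mcm-5 averaged 117 ± 13.95 against 21.1 ± 0.316 (2.41). The sliding clamp pcn-1 averaged 564.2 ± 68.1 RPKM against 192 ± 28.4 (1.55), and the ribonucleotide reductase subunit rnr-1 215 ± 48.98 against 49.2 ± 3.14 (2.08). These genes did not overlap between the stages.

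Condensin, cohesin and kinetochore genes gave 27 higher and 1 lower of 42 (median 0.67), and 15 and 1 with library 8 in L4, among them the kinetochore gene rod-1 (2.32) and the Aurora kinase air-1 (1.03). Of 23 cyclins and their kinases, 14 were higher and 1 lower, and 9 and 1 with library 8 in L4. The B-type cyclin cyb-3 stood at 201, 203, 216 and 231 RPKM against 54.996, 56.8 and 64.6 (1.84, SE 0.12). The related cyb-2.1 and cyb-2.2 were close to absent from L4: cyb-2.1 stood at 19.8, 25.8, 20.4 and 26.8 RPKM with 2 reads in L4 (ratio 583, counting interval 161 to 4820), and cyb-2.2 at 30.4 ± 2.09 RPKM against 0.297 ± 0.269 (4.62). Meiotic chromosome proteins, by contrast, sat near level, with 11 higher and 9 lower of 33 and a median of 0.02. After median centring that balance became 18 and 1. The axis protein gene him-3 averaged 73.5 ± 14.7 RPKM against 73.0 ± 8.21 (-0.01, adjusted p = 0.9752), while the cohesin rec-8 was lower in young adults (-0.77, SE 0.17) and the mismatch repair gene msh-2 higher (1.72, SE 0.16).

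Most cytosolic ribosomal protein genes were higher in young adults. Large-subunit ribosomal proteins gave 26 higher and 2 lower of 35 (median 0.69), and small-subunit ones 18 and 1 of 27 (median 0.65). Library 8 in L4 brought these to 14 and 1, and to 9 and 1. The most occupied large-subunit gene, rpl-18, ranged from 2976 to 6998 RPKM within young adults and from 4098 to 7022 within L4, with a difference of -0.17 (adjusted p = 0.617). The small protein gene rps-24 stood at 6624, 5330, 6250 and 4747 RPKM against 2895, 2257 and 2154 (1.24, SE 0.17), and rps-25 ran the other way, at 3437 ± 760 against 5899 ± 574 (-0.80). The largest rise was rpl-37.1, at 870, 648, 1992 and 1397 RPKM against 231, 190 and 139 (2.61, SE 0.35), where the kit libraries were the higher ones. Proteasome subunits gave 25 higher and 1 lower of 33 (median 0.55), and 14 and 1 with library 8 in L4. Aminoacyl-tRNA synthetases gave 15 higher and 4 lower of 32 (median 0.29), and 8 and 1 with library 8 in L4. Elongation factors gave 4 higher and 2 lower of 8.

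Mitochondrial ribosomal proteins showed the opposite count, with 43 of 70 lower and none higher (median -0.52). That balance turned on the scaling, since median centring gave 11 higher and 15 lower. The same held for 46 oxidative phosphorylation subunits, with 3 higher and 31 lower as deposited (median -0.58) and 7 and 16 after median centring. With library 8 in L4 the lower counts were 14 and 18. The complex V subunit atp-2 stood at 1934, 1839, 2134 and 2122 RPKM against 2886, 3140 and 2833 (-0.56, SE 0.13), and the cytochrome oxidase subunit cox-7C averaged 1087 ± 509 against 2701 ± 225 (-1.43). Translation initiation factors were near level, at 8 higher and 5 lower of 32 as deposited (median 0.07), but 20 and 2 after median centring.

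Within several of these families, paralogs moved apart. The elongation factor eef-1A.1 stood at 14260, 14376, 11299 and 11312 RPKM in young adults and 9035, 9454 and 7140 in L4 (0.58, SE 0.17), while its paralog eef-1A.2 stood at 313, 299, 290 and 267 against 1380, 1422 and 1122 (-2.15, SE 0.14). The eIF5A genes split likewise, with iff-1 at 3177 ± 513 RPKM against 1535 ± 117 (1.04) and iff-2 at 494 ± 101 against 1616 ± 542 (-1.68). Per length, eef-1A.1 was the higher of its pair in every library of both stages, whereas iff-1 led iff-2 in young adults and their values overlapped in L4.

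Among cap-binding eIF4E genes, ife-3 was higher in young adults, at 629 ± 9.08 RPKM against 250 ± 19.1 (1.33), whereas ife-1 (-0.72), ife-2 (-1.25) and ife-5 (-2.31) were lower. The gene ife-5 stood at 5.44, 5.44, 5.34 and 4.03 RPKM in young adults and at 31.2, 28.4 and 27.4 in L4. A proteasome lid subunit had the same pattern: rpn-6.1, named after its values were seen, averaged 234 ± 30.3 RPKM against 111 ± 4.57 (1.06), and rpn-6.2 4.62 ± 0.601 against 35.4 ± 0.216 (-2.70). In the respiratory chain, the ATP synthase gene asb-1 averaged 503 ± 34.6 against 221 ± 22.7 (1.19) and its paralog asb-2, also named after its values were seen, 490 ± 33.6 against 974 ± 54.4 (-0.99). Cytochrome c gene cyc-2.2 was lower, at 76.4 ± 19.5 RPKM against 233 ± 39.8 (-1.61).

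Argonautes, the small-RNA-binding proteins of silencing pathways, moved both ways, 8 higher and 7 lower of 20. The germline gene csr-1 stood at 152, 217, 215 and 285 RPKM in young adults and at 73.0, 71.8 and 55.1 in L4 (1.67, SE 0.20), and wago-1 averaged 254 ± 17.7 against 122.8 ± 18.4 (1.05). Lower were alg-4, which acts in sperm development, at 5.94 ± 0.723 RPKM against 29.6 ± 4.41 (-2.13), and wago-10 at 0.724 ± 0.197 against 16.4 ± 0.598 (-3.34). The Piwi gene prg-1 did not separate, at 89.4 ± 18.3 against 81.1 ± 5.74 (0.12, adjusted p = 0.542).

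**Figure D3:**
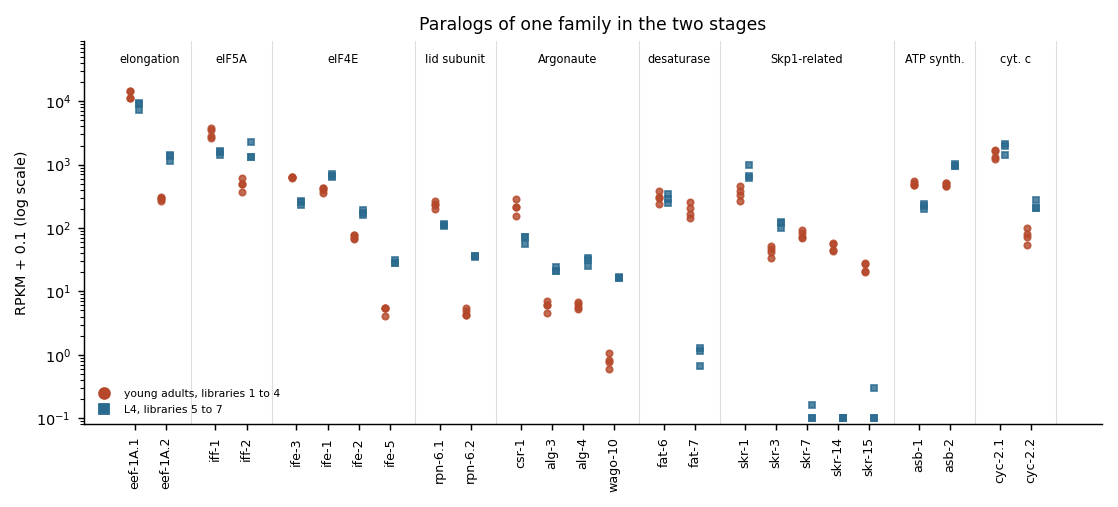
RPKM + 0.1 (vertical, log scale) in each library for paralogs of one family, grouped by the family named above the points. Circles are young adult libraries 1 to 4 and squares L4 libraries 5 to 7. For eef-1A.1, iff-1, ife-3, rpn-6.1, csr-1, fat-7, skr-7, skr-14, skr-15 and asb-1 all circles lie above the squares; for eef-1A.2, iff-2, ife-1, ife-2, ife-5, rpn-6.2, alg-3, alg-4, wago-10, skr-1, skr-3, asb-2 and cyc-2.2 all lie below.

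Sperm genes fell into a level set and a lower set. The 9 sperm markers summed to 263.2 to 354.3 RPKM in young adults and 325.9 to 471.1 in L4, ranges that overlap. Library 8 held 184, below both stages. None of these markers was called higher, and 4 were called lower. Major sperm proteins, the cytoskeletal and signalling proteins of nematode sperm, gave 4 higher and 4 lower of 26 (median 0.25), which median centring turned to 13 and 1. The most occupied, msp-64, stood at 178, 135, 216 and 157 RPKM in young adults and at 148, 154 and 126.2 in L4 (0.25, adjusted p = 0.22), and library 8 held 86.3. Members of this family are near-identical, so their single values are uncertain. The spe and fer genes, needed to make and activate sperm, gave 26 lower and 3 higher of 35 tested, with 11 of the 35 in through L4 alone, and 16 lower with library 8 put back. The transcription factor gene spe-44, which drives early spermatogenesis, stood at 0.425, 0.150, 0.684 and 0.469 RPKM in young adults and at 19.8, 18.998 and 22.3 in L4 (-3.91, SE 0.15). The gene spe-18 averaged 23.6 ± 6.22 RPKM against 142.3 ± 41.5 (-2.54), and the sperm phosphatase gsp-3 26.3 ± 1.72 against 71.7 ± 10.6 (-1.40). Small families named for sperm gave 10 lower and 3 higher of 30, a balance that median centring turned to 2 and 10 and that was 3 and 2 with library 8 in L4. The largest rises among them, ssp-37 at 28.7 ± 8.82 RPKM against 0.188 ± 0.166 (4.61) and sss-1 at 27.7 ± 5.94 against 1.10 ± 0.856 (3.82), lay far from the rest.

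On the L4 side, the largest falls were led by genes of the apical matrix and epidermis. Of the 15 outside collagen, dbd-2 on chromosome II was the most occupied, at 12.8, 12.5, 9.14 and 10.7 RPKM in young adults and at 5695, 6557 and 9756 in L4 (log2 difference -9.19, SE 0.20). The cuticlin cut-2 stood at 2.14, 1.51, 1.36 and 1.40 RPKM against 1581, 1308 and 1107 (-8.996, SE 0.16). Outside collagen means outside a list of gene names, and rol-1, named for a rolling phenotype, was not on it. Whether rol-1 belongs with the collagens was not checked. It averaged 1.29 ± 0.154 RPKM against 1025 ± 116 (-8.81). The gene mlt-11, a molting gene with protease inhibitor domains, averaged 0.415 ± 0.0619 against 381 ± 43.9 (-8.07). Library 8 held 32.1 RPKM of dbd-2 and 18.1 of cut-2, both above every young adult library, where cut-2 averaged 1.60 and dbd-2 11.3 RPKM, and far below L4.

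Lipocalin-related lpr genes, which shape the apical matrix of epithelia, sit in a row on the X chromosome. The gene lpr-3 stood at 1.49, 1.47, 1.33 and 1.02 RPKM in young adults and at 699, 755 and 1054 in L4 (-8.47, SE 0.17), and lpr-4 at 0.194, 0.212, 0.236 and 0.300 against 362, 426 and 427 (-8.36, SE 0.12). Their neighbours lpr-5 and lpr-6, named for their position, averaged 0.571 and 0.764 RPKM in young adults against 319 and 229 in L4. Molting regulators and inhibitors as a family gave 22 lower and 1 higher of 25 (median -3.62), of which 12 came in through L4 alone, and 18 lower with library 8 in L4. The exception was the endocytosis gene rme-8 (0.88, SE 0.21), a broadly used endosomal protein.

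Cuticlins and other zona pellucida (ZP) domain proteins, matrix proteins that line the cuticle's ridges and the epidermal surface, were lower for all 31 tested members, 22 of which came in through L4 alone. With library 8 put back, 21 were still called. The genes noah-1 and noah-2 ran at near-equal levels, noah-1 at 5.94, 6.23, 5.58 and 6.18 RPKM against 666, 724 and 536 (-6.51, SE 0.14) and noah-2 at 4.85, 5.41, 5.26 and 4.70 against 575, 626 and 455 (-6.50, SE 0.14). The fibrillin-like gene fbn-1 averaged 0.838 ± 0.0645 RPKM against 78.4 ± 1.04 (-5.43). Their L4 values in library 7, the shallowest of the 3, were the lowest for both noah genes.

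Hedgehog-related genes encode secreted proteins of the epidermis and other epithelia, and 31 of 37 tested were lower and 2 higher (median -3.08). Here too 22 of the 37 came in through L4 alone, out of 58 in the table. The gene grl-16 stood at 2.66, 2.29, 2.11 and 2.52 RPKM against 888, 871 and 1321 (-8.22, SE 0.17), grl-5 at 0.534, 0.227, 0.304 and 0.161 against 567, 592 and 464 (-8.70, SE 0.15), and wrt-10 averaged 1.82 ± 0.348 against 549 ± 25.2 (-7.61). The 9 tested members of the wrt prefix had a median of -6.74, with 6 of them in through L4 alone. Against that direction, grd-3 stood at 397, 406, 322 and 361 RPKM against 112, 101 and 78.1 (1.94, SE 0.16). The gene grd-4 was higher too, with 318 reads in young adults and 3 in L4 (ratio 49.1, counting interval 16.7 to 239).

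Patched-related proteins, transmembrane proteins of the family of the Hedgehog receptor, gave 20 lower and 4 higher of 26 (median -1.55). Through L4 alone came 10 of the 26. Members again split. The germline gene ptc-1 stood at 69.9, 90.5, 73.0 and 93.1 RPKM against 16.0, 16.9 and 22.2 (2.09, SE 0.16), and ptc-3 at 5.59, 6.98, 6.49 and 9.25 against 70.8, 68.4 and 89.1 (-3.26, SE 0.17). The largest fall was ptr-4, at 0.419 ± 0.067 RPKM against 71.7 ± 3.51 (-5.68). Astacin metalloproteases gave 17 lower and 4 higher of 26, of which 13 came in through L4 alone and 3 through young adults alone. The collagen-processing dpy-31 averaged 22.4 ± 2.70 RPKM against 62.9 ± 0.648 (-1.46) and the molting protease nas-37 12.8 ± 2.50 against 87.03 ± 3.67 (-2.69), while nas-20 was nearly confined to young adults at 45.8 ± 9.28 against 0.755 ± 0.0696 (4.72). The bus prefix, genes named for bacterially induced swelling of the tail and known for roles at the body surface, was lower for 14 of 14, with 12 in through L4 alone.

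Some abundant chaperones and folding enzymes were lower in young adults, others higher. The protein disulfide isomerase pdi-2, which is a partner of collagen prolyl hydroxylase, stood at 818, 651, 736 and 584 RPKM in young adults and at 4624, 5198 and 4462 in L4 (-2.78, SE 0.15). The chaperone calreticulin, crt-1, averaged 1070 ± 121 RPKM against 3853 ± 1045 (-1.82). The fkb prefix of peptidyl-prolyl isomerases was lower for 7 of 8 (median -2.60). Among the whole list of 62 heat shock proteins and chaperones, 18 were higher and 28 lower, a split that became 26 and 20 after median centring and 9 and 22 with library 8 in L4. Cytosolic hsp-1 (0.35) and hsp-90 (0.50) were modestly higher in young adults. The small heat shock gene hsp-16.2 stood at 0.594, 0.252, 0.281 and 0.595 RPKM against 62.5, 64.3 and 59.7 (-5.47, SE 0.14), and hsp-16.41 averaged 0.0992 ± 0.0348 against 41.2 ± 9.95 (-5.24).

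Without a gene name, F41F3.3 was the most occupied of the large falls, at 8.88, 9.90, 4.41 and 4.00 RPKM in young adults and at 3945, 3489 and 5050 in L4 (-9.13, SE 0.28). E01G4.6 averaged 0.875 ± 0.0894 RPKM against 892.98 ± 51.0 (-8.90), and H42K12.3 0.294 ± 0.069 against 495 ± 33.7 (-8.58). Y75B7AR.1, Y102A11A.5, K02E11.10 and Y65B4BL.1 followed, with L4 means of 386, 688, 349 and 319 RPKM and young adult means of 0.366, 1.65, 0.486 and 0.371. For C14A4.9, at 268, 293 and 181 RPKM in L4, young adults held 3 reads, a ratio of 5070 with a counting interval of 1730 to 24600. The set also held C02E7.6, F59B10.5, W02F12.8 and F33D4.6, with L4 means of 947, 303, 256 and 227 RPKM. W02F12.8 was uneven among the L4 libraries, at 183, 190 and 395 RPKM.

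The dbd and abu genes went with them. All 14 tested dbd genes were lower (median -4.40), 8 of them in through L4 alone. The member dbd-4 had no read in any young adult library and 172 reads in L4, so L4 was at least 124-fold higher by the floor of 3 reads over the young adult libraries. It was chosen after its values were seen, as the member listed at 0. Prion-like and abu genes gave 31 lower and 6 higher of 53, of which 16 came in through L4 alone and 1 through young adults alone. Among them abu-13 stood at 0.277, 0.247, 0.330 and 0.249 RPKM against 162, 172 and 139 (-6.95, SE 0.13), and abu-14 averaged 0.734 ± 0.344 against 147 ± 41.2 (-6.39).

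CDS with a sequence name alone were tested in 5532 cases out of 9094 in the table. Of these 1046 were higher (18.9%) and 2890 lower (52.2%), with a median of -0.47. The 7962 tested CDS with a gene name gave 2013 higher (25.3%) and 3403 lower (42.7%), with a median of -0.23. Differences of more than 4-fold were more frequent among the unnamed, 4.68% higher and 10.4% lower, than among the named, 3.25% and 7.27%. The median RPKM of the unnamed was lower too, 4.38 in young adults and 7.26 in L4 against 11.3 and 13.6. Among the unnamed 991 came in through L4 alone and 413 through young adults alone, against 885 and 339 of the named. The part of level and of the filter in these shares was not tested. With library 8 in L4 the unnamed counts fell to 517 and 1682. A group of 49 tested CDS that are pseudogenes in the current annotation gave 5 higher and 28 lower, and 25 of the 49 came in through L4 alone.

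Muscle, neuronal and regulatory genes were lower in young adults, mostly by less than 4-fold. Muscle contraction genes gave 26 lower and 1 higher of 34 (median -0.90), and 18 and 5 after median centring. The troponin C gene pat-10 stood at 1983, 1559, 1804 and 1338 RPKM in young adults and at 4584, 4399 and 6507 in L4 (-1.62, SE 0.19). The tropomyosin gene lev-11 averaged 765 ± 161 RPKM against 2745 ± 741 (-1.83), and tni-1, a troponin I, 35.1 ± 8.61 against 231 ± 36.8 (-2.70). The single riser was the calponin-like cpn-1, at 401 ± 54.3 RPKM against 253 ± 18.7 (0.65). The 4 muscle markers summed to 708.7 to 1068 RPKM in young adults, 1977 to 1986 in L4 and 1064 in library 8. With library 8 in L4, 18 of the 34 were called lower and none higher.

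Neuropeptide genes gave 69 lower and 2 higher of 92 (median -1.06), 55 and 3 after median centring, and 42 and 2 with library 8 in L4. The gene nlp-49 stood at 47.1, 36.5, 28.98 and 24.0 RPKM against 137, 148 and 207 (-2.25, SE 0.23), flp-9 averaged 13.6 ± 3.29 against 86.4 ± 34.0 (-2.54), and nlp-40, which is released by the intestine, did not separate at 300 ± 42.7 against 325 ± 28.8 (-0.12, adjusted p = 0.472). The 4 neuronal markers summed to 169.8 to 227.4 RPKM in young adults and 326.8 to 350.6 in L4. Insulin-like peptides gave 16 lower and 7 higher of 28, and 10 and 2 with library 8 in L4. The most occupied, ins-27, stood at 26.4, 24.9, 17.1 and 19.4 RPKM against 293, 345 and 302 (-3.79, SE 0.17), daf-28, which promotes reproductive growth over dauer arrest, averaged 9.16 ± 3.00 against 28.6 ± 5.77 (-1.57), and ins-34 had no read in L4, at least 57.8-fold higher in young adults. Only 12 of 1335 chemoreceptor genes reached the threshold, so that family was hardly measured.

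Nuclear hormone receptors, a greatly expanded family of transcription factors in this worm, gave 93 lower and 8 higher of 154 (median -0.54), and 43 and 23 after median centring, with 46 and 2 when library 8 was in L4. Through L4 alone came 30 of the 154, and 5 through young adults alone. The molting regulator nhr-23 stood at 1.86, 1.56, 2.80 and 2.33 RPKM against 22.2, 26.7 and 26.8 (-3.08, SE 0.16), and nhr-91 averaged 1.59 ± 0.275 against 16.3 ± 0.734 (-2.75). In the other direction, nhr-2 averaged 6.97 ± 1.54 RPKM against 0.185 ± 0.0427 (2.73) and sex-1, which acts in counting X chromosomes, 12.0 ± 1.13 against 3.44 ± 0.210 (1.55). Homeobox genes gave 43 lower and 11 higher of 67, and 26 and 3 with library 8 in L4. Through L4 alone came 21 of the 67, and 9 through young adults alone. The Hox gene mab-5 averaged 1.47 ± 0.196 RPKM against 10.7 ± 1.89 (-2.24), whereas ceh-49, with 908 reads in young adults, had 1 read in L4 (ratio 421, counting interval 75.3 to 16600).

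**Figure D4:**
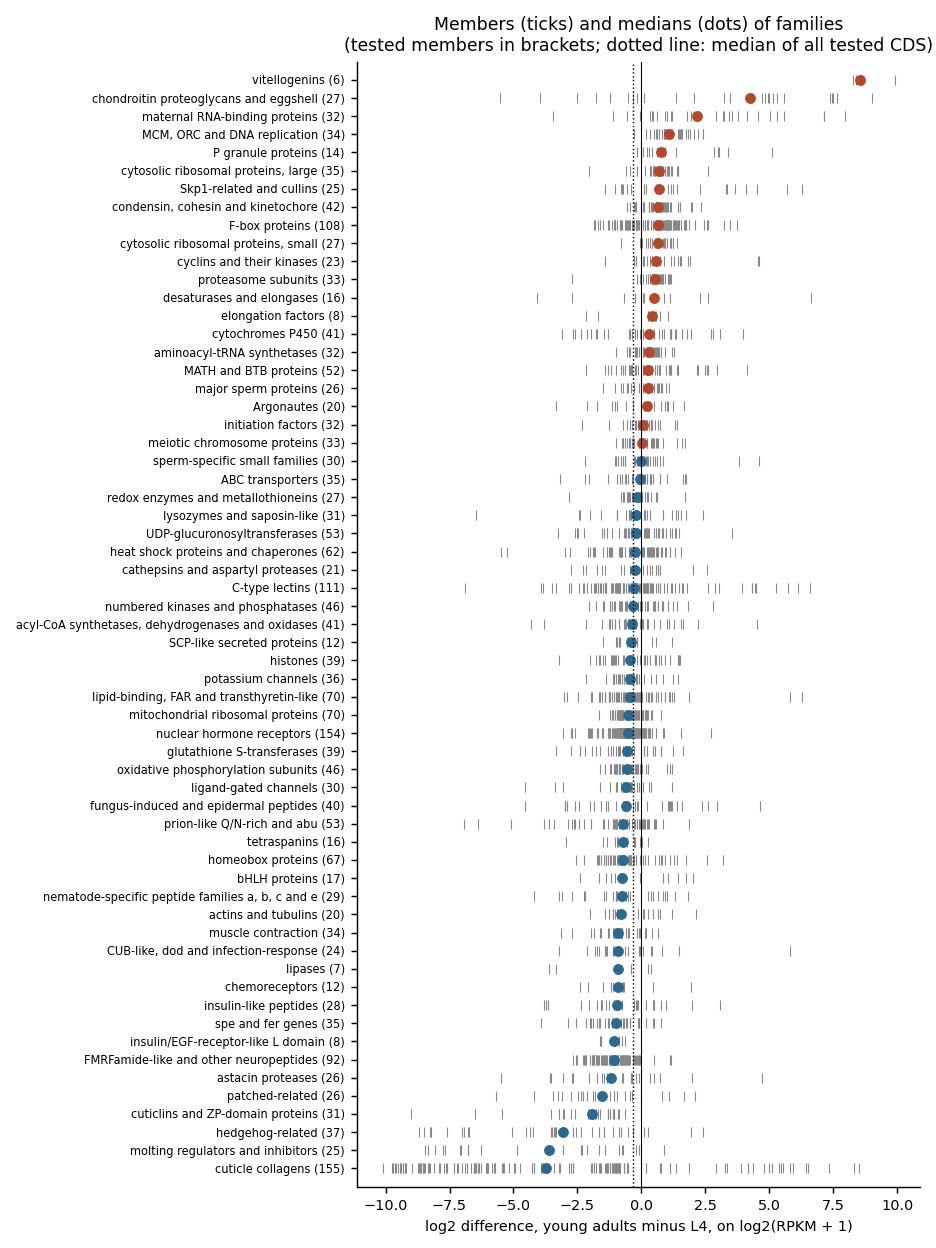
Log2 difference (young adults minus L4, on log2(RPKM + 1), horizontal) of each tested member (ticks) and the family median (dots), with the number of tested members in brackets. Vitellogenins and cuticle collagens are a description only. The dotted line is the median of all tested CDS, -0.34, and medians run from 8.55 for vitellogenins to -3.73 for cuticle collagens.

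Intestinal, lipid and defence families held members at both extremes. Cathepsins and aspartyl proteases, which act in lysosomes and digestion, gave 10 lower and 7 higher of 21, and 6 and 9 after median centring. The most occupied differed little: asp-1 averaged 2549 ± 520 RPKM against 3413 ± 228 (-0.44, adjusted p = 0.0476), cpl-1 2419 ± 420 against 1875 ± 108 (0.35, adjusted p = 0.0747) and asp-6 1287 ± 236 against 1216 ± 155 (0.07, adjusted p = 0.725). By contrast asp-3 averaged 1049 ± 271 RPKM against 1756 ± 129 (-0.78), asp-8 7.08 ± 1.27 against 52.8 ± 4.37 (-2.74) and asp-17 21.5 ± 2.82 against 2.90 ± 1.10 (2.56). Of the 4 intestine markers 1 was called higher and 3 lower, and they summed to 2767 to 4128 RPKM in young adults and to 3806 to 4202 in L4, ranges that overlap. The lysozyme ilys-5 stood at 3978, 4296, 3407 and 3754 RPKM against 1201, 1128 and 1142 (1.73, SE 0.13), and lys-7 averaged 159 ± 12.1 against 28.9 ± 2.60 (2.42), while lys-2 averaged 72.7 ± 13.1 against 399 ± 84.6 (-2.43).

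C-type lectins, a large family of carbohydrate-binding proteins, gave 52 lower and 27 higher of 111 tested, from 253 in the table. These shares, 46.8% and 24.3%, were close to the 46.6% and 22.7% over all CDS. Median centring turned the median of -0.30 to 0.10, with 41 lower and 43 higher. Single members lay far out on each side. The lectin clec-87 stood at 211, 238, 223 and 257 RPKM in young adults and at 1.42, 1.19 and 1.64 in L4 (6.59, SE 0.13), and clec-91 averaged 168 ± 22.8 against 1.43 ± 0.559 (6.13). At the other end clec-180 stood at 0.486, 0.295, 0.247 and 0.146 RPKM against 156, 157 and 140 (-6.88, SE 0.14). The most occupied, clec-63, averaged 637 ± 147 RPKM against 2191 ± 440 (-1.79).

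Fatty acid desaturases and elongases gave 9 higher and 3 lower of 16. The stearoyl-CoA desaturase fat-7 stood at 142.1, 164, 206 and 258 RPKM in young adults, at 1.17, 1.05 and 0.574 in L4 and at 10.1 in library 8 (6.62, SE 0.21). Its close paralog fat-6 did not separate, at 237, 295, 312 and 383 RPKM against 285, 340 and 250 (0.06, adjusted p = 0.762). The polyunsaturated fatty acid enzymes fat-1 and fat-2 were higher by 2.62 and 2.60, and elo-4 was lower, at 1.78 ± 0.504 RPKM against 46.5 ± 10.9 (-4.09). Lipases gave 5 lower and none higher of 7. Among lipid-binding, FAR and transthyretin-like genes, 36 were lower (51.4%) and 13 higher (18.6%) of 70. These shares were near the 46.6% and 22.7% over all CDS. The counts were 24 and 19 after median centring, and 23 and 5 with library 8 in L4. The fatty acid and retinol binding protein far-1 averaged 1722 ± 236 RPKM against 4710 ± 1171 (-1.43), and the transthyretin-like ttr-42 stood at 64.6, 61.6, 117 and 125.9 RPKM against 0.0856, 0.409 and 0 (6.26, SE 0.27). Acyl-CoA dehydrogenase acdh-1 was higher (1.56), and acdh-2 more so, at 31.1 ± 1.08 RPKM against 0.406 ± 0.230 (4.52) with 3.62 in library 8.

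Detoxification families differed from each other. Cytochromes P450 gave 19 higher and 12 lower of 41 (median 0.30), with cyp-35A2 at 37.6, 49.5, 53.8 and 72.2 RPKM against 8.34, 8.36 and 3.97 (2.80, SE 0.27), cyp-31A2 at 34.3 ± 8.97 against 1.24 ± 0.677 (3.99) and cyp-13A2 at 3.02 ± 0.643 against 33.5 ± 7.91 (-3.09). Glutathione S-transferases gave 24 lower and 6 higher of 39, among them gst-6 at 15.8 ± 1.20 RPKM against 168 ± 25.8 (-3.32), while the most occupied, gst-1, did not separate (0.10, adjusted p = 0.563). After median centring the counts were 15 and 11. UDP-glucuronosyltransferases gave 18 lower and 14 higher of 53, a median of -0.21 that turned to 0.20 after median centring, and 9 and 9 with library 8 in L4. Metallothionein mtl-2 averaged 1303 ± 222 RPKM against 401 ± 71.3 (1.70).

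Epidermal antimicrobial-like peptides gave 20 lower (50.0%) and 10 higher (25.0%) of 40, near the 46.6% and 22.7% over all CDS. With library 8 in L4 the counts were 8 and 9, and several of these genes were uneven between the library preparations of young adults. The gene nlp-33 stood at 60.6 and 66.5 RPKM in the in-house libraries, 220 and 215 in the kit libraries and 817, 573 and 583 in L4 (-2.45, SE 0.45). For nlp-27 the same libraries gave 324 and 379, then 951 and 833, against 93.9, 75.2 and 180 (2.36, SE 0.41). The stages did not overlap for either gene, though preparation alone moved both by a factor of more than 2. Actin act-1 showed this more strongly, at 17.5 and 21.6 RPKM in-house and 148 and 188 with the kit against 17.006, 12.7 and 8.80 in L4 (2.13, SE 0.76, adjusted p = 0.0300), and actin genes are near-identical. The muscle-type act-4 stood at 1104, 1251, 1350 and 1508 RPKM against 2586, 2837 and 2867 (-1.09, SE 0.14).

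Histone genes were tested for 39 of 80, with 18 lower (46.2%) and 10 higher (25.6%), near the 46.6% and 22.7% over all CDS. Median centring turned that balance to 13 and 17, and library 8 in L4 gave 11 lower and none higher. The replacement histone H3.3 genes his-72 and his-71 were lower, his-72 at 308 ± 112 RPKM against 797 ± 74.1 (-1.43) and his-71 at 35.1 ± 8.17 against 143 ± 16.4 (-2.01). The related his-70 was lower by more, at 4.65, 5.93, 6.33 and 6.62 RPKM against 74.0, 58.6 and 57.3 (-3.22, SE 0.15). Copies of the core histones are near-identical, so single values of them are uncertain.

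Chromosome, length and level went along with the direction of the calls. On the X chromosome 20.0% of 1881 tested CDS were higher and 54.7% lower (median -0.52), against 23.2% and 45.2% of 11472 autosomal CDS (median -0.30). Differences of more than 4-fold were more frequent on the X both ways, 5.37% and 10.6% against 3.63% and 8.25%. Among the X members 336 came in through L4 alone and 160 through young adults alone, against 1500 and 588 of the autosomal ones. Of the autosomes, chromosome I had the largest share of higher calls, 25.8%, with 41.9% lower and a median of -0.23. With CDS in 5 classes of equal size, the median moved from -0.57 in the shortest features (50 to 559 bases) to -0.13 in the longest (1850 to 56003 bases). From the lowest of 5 classes of mean RPKM to the highest it moved from -0.56 to -0.16. In the lowest class 1335 of 2699 CDS came in through L4 alone and 469 through young adults alone, against 65 and 28 in the highest. The level and the filter therefore cannot be told apart there. None of these trends was tested, nor whether one accounts for another.

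Some adjacent CDS were called in the same direction by more than 4-fold. Of 517 mapped CDS higher by more than 4-fold, 57 had a next CDS in chromosome order that was also in the set, against a share of the set of 2.58% among all 20051 mapped CDS. For the 1145 lower ones the next CDS was in the set for 145 (12.7%), against 5.72% and 8.54%. These sets hold the families that led to leaving out library 8. On the higher side are 6 vitellogenins and 20 cuticle collagens, and on the lower side 89 collagens. Runs of at least 3 numbered 9 on the higher side, with 30 CDS, and 26 on the lower side, with 84 CDS and a longest run of 5. The runs include tandem copies such as the skr genes on chromosome IV, where reads could be shared between copies, as well as unlike neighbours such as col-154, gtnt-32 and col-155 on chromosome V. The longest was pqn-63 with idpc-7, idpc-6, idpc-5 and idpc-4 on chromosome V, with young adult means of at most 0.2232 RPKM and L4 means of 5.71 to 18.17. On the X chromosome R04D3.2, R04D3.4 and R04D3.3 had young adult means of 16.27 to 112.0 RPKM and L4 means of 0.06204 to 0.1617. Runs were picked by their calls, so the values describe them and carry no test.

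**Figure D5:**
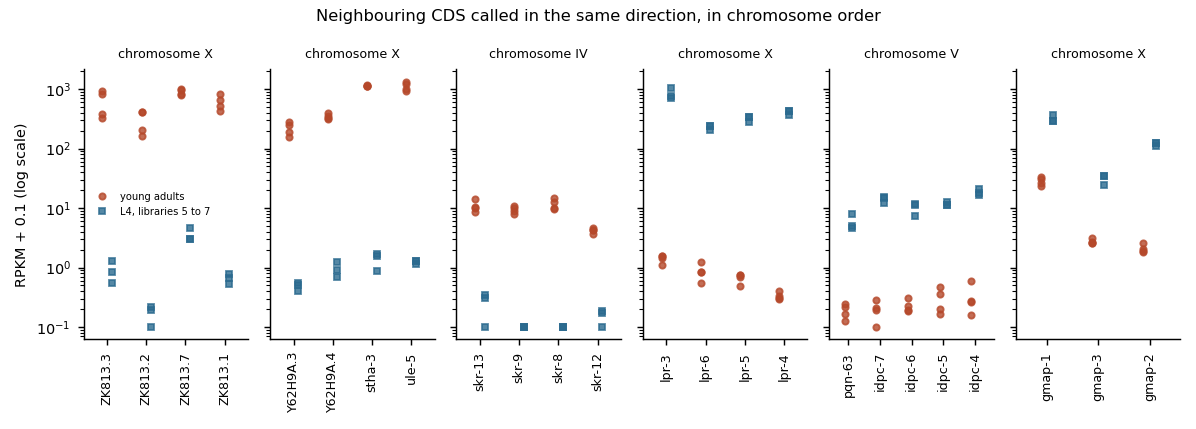
RPKM + 0.1 (vertical, log scale, shared by all panels) in each library for 6 runs of adjacent CDS in chromosome order, circles for young adult libraries 1 to 4 and squares for L4 libraries 5 to 7. In the 3 left panels every circle lies above every square of the same CDS, and in the 3 right panels every square lies above.

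Among the 300 CDS of highest mean RPKM, the 10 with the smallest difference included housekeeping genes. The alh-8 gene, an aldehyde dehydrogenase, averaged 755 ± 16.5 RPKM in young adults and 766 ± 105 in L4, a log2 difference of -0.01 with a 95% interval of -0.31 to 0.28. The mitochondrial citrate synthase cts-1 differed by -0.04 (interval -0.45 to 0.37), the malate dehydrogenase mdh-1 by 0.02 (-0.37 to 0.42) and icd-1, a subunit of the nascent polypeptide-associated complex, by -0.03 (-0.40 to 0.34). The cyclophilin cyn-7 averaged 3488 ± 807 RPKM against 3539 ± 890 (-0.02, interval -0.52 to 0.47), dct-16 6328 ± 1261 against 6349 ± 1234 (-0.46 to 0.44), and F58F12.1 660 ± 79.97 against 636 ± 75.6 (-0.28 to 0.38). The intervals of rps-29 (-0.66 to 0.67) and T27E9.2 (-0.93 to 1.01) were wide enough to hold a change of more than 1.5-fold. All 10 were picked for a small difference, so their intervals describe them and do not show that any of them is level. After median centring such CDS move up with all others, mdh-1 for example to a log2 difference of 0.42.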

How the data were processed

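The deposited table gives RPKM per CDS and library, computed by the authors, with the counting rule for reads that match several places or either strand not given in the sources used here. Per the submitters' processing notes, bcl2fastq 1.8.4, Bowtie2 2.2.4 and STAR 2.4 were used, without their roles, and no genome build was used for coordinates. Low values were whole multiples of the worth of 1 read, so reads were recovered: this held within 0.0001 for each of the 19649 CDS that were not at 0 throughout, against 856 that were. Gene names came from the current RefSeq annotation for 20051 of 20505 CDS, and 454 did not match.

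The members, families and lists were chosen with earlier results of these data known. CDS that reached 1 RPKM in 2 or more of the 7 libraries were tested with limma 3.58.1 in R 4.3.3 (lmFit, then eBayes with its trend option) on log2(RPKM + 1), young adults minus L4, with Benjamini-Hochberg adjustment over all 13494. All differences, SEs and adjusted p-values are from that fit, and a direction given without a p passed an adjusted p of 0.05. Tables and figures were made with Python 3.11.15, numpy 2.4.6, pandas 2.3.3, scipy 1.17.1 and matplotlib 3.10.9. On simulated data with 200 changed CDS of 13494, the fit found 70% of log2 changes of 1 and 97% of changes of 2, and 2.907% of its calls were false. The simulation drew independent noise with no shift common to all CDS. In the data 69.3% of CDS were called and the balance depended on the scaling, so these rates may not carry over.

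Named CDS are the 15 largest changes each way outside yolk and collagen, the 12 largest each way without a gene name, and in each of 61 families the 4 with the highest mean and the 2 largest changes each way. The 10 smallest differences among the 300 most occupied CDS were named too. The genes ule-2, ule-4, skr-8, skr-9, skr-15, lpr-5, lpr-6, dbd-4, vit-3, vit-4, alg-3, asb-2, rpn-6.1 and the members of neighbour runs were chosen after their values were seen. Alternatives were other pseudocounts, filters, scalings, no trend, voom on recovered reads, library 8 kept, young adult subsets and leaving out each library. No sequence is printed.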

Additional observations from a re-analysis of the deposited data

Results flagged for a closer look

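In groups of 4 libraries, a library was picked out where its gap to the nearest other took up more of the group's range than Dixon's critical value allows. Chance picks about 1 in 20 groups, and 8 of the 462 young adult groups of named CDS were picked (1.73%). Library 1 stood apart for the eggshell gene perm-2, at 1850 RPKM against 1590 to 1620 in the others, and for cpr-3, at 4.45 against 4.61 to 4.62. Library 3 stood apart for clec-258, at 0.63 RPKM against 0.103 to 0.171, for hlh-3, at 3.83 against 2.45 to 2.56, and for btb-6, at 16.6 against 18.5 to 18.8. Library 4 stood apart for htp-1, at 47.0 RPKM against 38.7 to 39.1, for fbxa-101, at 40.0 against 35.4 to 36.2, and for ife-5, at 4.03 against 5.34 to 5.44. Outside the fit, library 8, labelled L4, was nearer the young adult mean for 15 of the 15 largest rises.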

How the results depend on the processing

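No paired analysis was possible because the table's columns carry no replicate number shared between the stages. Against 3059 CDS higher and 6293 lower, median centring gave 4937 and 4171, quantile normalization 4788 and 4138, and library 8 kept in L4 1510 and 3748. A filter at an RPKM of 10, which tests fewer CDS, gave 3336 lower. Among CDS with a sequence name alone, 1046 were higher and 2890 lower. The filter at 10 gave 601 and 1339 there, quantile normalization 1755 and 1905, library 8 kept 517 and 1682, and median centring 1725 higher. Leaving out each library in turn gave 2764 to 3050 higher and 5704 to 6392 lower over all CDS, 956 to 1055 and 2629 to 2934 without a gene name, and 20 to 23 families with a median above 0 (22 with all libraries). No called CDS turned its direction and stayed called under the alternatives compared: 2 pseudocounts, 2 filters, 2 scalings, no abundance trend, voom on recovered reads and library 8 kept. Of the 462 named CDS, 93 lost their call with library 8 in L4 and 32 lost and 33 gained one with median centring. Family medians changed sign for 9 of 61 families under median centring and 8 under quantile normalization, which put 31 and 30 families above 0, and for at most 3 under any other alternative. CDS with 0 to 3 reads in a stage are limited by depth, and the other causes were not tested.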
